A study of Mus musculus with 10 samples.

Results

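Genes for cilium transport and the centrosome were followed through mouse spermatogenesis. They were taken by symbol, as every gene of the deposited scRNA-seq matrix whose name starts with Ift, Bbs or Cep and goes on with a number. This gave 60 of 28125 genes, and all 60 also had a row in the scATAC-seq matrix. They comprise 14 Ift genes, 8 Bbs genes, 36 Cep genes and 2 antisense transcripts named after a member, Cep112os1 and Ift88os. The rule used no measured value.

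Nuclei of whole testes were profiled for RNA and accessible chromatin together, with 1 library per condition and assay. Wild-type C57BL/6 J mice were taken at 11, 17 and 25 days postpartum (dpp), when the first wave of germ cells passes through meiosis. Mice of 8 weeks of age were Cre/+, which carry Cre knocked in before the stop codon of Stra8, or Nfya-CKO, in which the same Cre removes exons of Nfya in germ cells that express Stra8. NFYA is a subunit of NF-Y, a transcription factor that binds CCAAT. The authors pooled the cells of all libraries into 13 populations. Of these, 9 are control germ cell populations: undifferentiated and differentiating spermatogonia (undiff. SpG and diff. SpG), preleptotene (pL), early leptotene to zygotene (eL/L/Z), leptotene to early pachytene (L/Z/eP), mid and late pachytene (mP/lP) and diplotene (D) spermatocytes, round spermatids (RS) and elongating spermatids (ES). The remaining 4 are Sertoli cells, an unknown group, spermatogonia of the library labelled Nfya-CKO (SpG Nfya-CKO) and other somatic cells.

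Intraflagellar transport (IFT) carries cargo along the axoneme of cilia and flagella on trains made of an IFT-A and an IFT-B complex. The BBSome, built of Bbs proteins, rides on these trains and removes membrane proteins from the cilium. Cep proteins build the centrioles, their appendages and the material around them, and the mother centriole becomes the basal body from which a cilium or a sperm tail grows. In the male germ line, centrosomes organise the spindles of mitosis and meiosis, whereas the tail is assembled in spermatids.

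Promoter sequences were examined because the study concerns a CCAAT-binding factor. RefSeq (GRCm38.p6, the build of mm10) gave the 300 bases around the transcription start for 49 of the 60 genes, 250 before it and 50 after it. The 250 bases before the start are shown for the 3 genes whose scATAC-seq value was lowest in SpG Nfya-CKO relative to undiff. SpG and for the 3 genes at the other end of that order, among genes with 1 listed start. They lie as follows: Cep41 on chr6:30693750-30693999, minus strand; Cep68 on chr11:20249425-20249674, minus strand; Cep89 on chr7:35396813-35397062, plus strand; Cep162 on chr9:87255533-87255782, minus strand; Cep170b on chr12:112721924-112722173, plus strand; Ift43 on chr12:86082311-86082560, plus strand. Sequences are written 5′ to 3′ on the strand of the gene, and capitals mark CCAAT or its complement ATTGG.
Cep41: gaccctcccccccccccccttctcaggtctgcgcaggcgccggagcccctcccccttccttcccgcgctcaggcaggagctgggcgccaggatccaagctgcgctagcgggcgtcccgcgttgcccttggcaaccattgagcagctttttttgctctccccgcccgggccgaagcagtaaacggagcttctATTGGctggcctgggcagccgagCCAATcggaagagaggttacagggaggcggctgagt
Cep68: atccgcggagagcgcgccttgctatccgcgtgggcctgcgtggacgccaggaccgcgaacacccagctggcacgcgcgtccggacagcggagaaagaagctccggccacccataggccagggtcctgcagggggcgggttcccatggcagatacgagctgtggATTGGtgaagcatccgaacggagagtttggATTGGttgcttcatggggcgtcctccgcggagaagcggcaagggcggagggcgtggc
Cep89: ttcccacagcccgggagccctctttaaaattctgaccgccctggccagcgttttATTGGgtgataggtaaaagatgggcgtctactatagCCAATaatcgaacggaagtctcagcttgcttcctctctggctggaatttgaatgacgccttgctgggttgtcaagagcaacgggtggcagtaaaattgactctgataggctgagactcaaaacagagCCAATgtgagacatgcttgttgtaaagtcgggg
Cep162: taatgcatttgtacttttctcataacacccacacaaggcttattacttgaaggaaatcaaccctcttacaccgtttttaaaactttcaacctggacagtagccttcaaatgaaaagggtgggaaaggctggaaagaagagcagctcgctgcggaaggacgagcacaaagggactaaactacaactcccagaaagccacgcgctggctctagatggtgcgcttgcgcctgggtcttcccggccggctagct
Cep170b: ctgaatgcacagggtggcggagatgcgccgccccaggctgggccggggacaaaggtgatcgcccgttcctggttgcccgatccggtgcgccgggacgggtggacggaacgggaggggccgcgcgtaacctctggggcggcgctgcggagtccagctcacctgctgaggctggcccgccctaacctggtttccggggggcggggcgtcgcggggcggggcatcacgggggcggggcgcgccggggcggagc
Ift43: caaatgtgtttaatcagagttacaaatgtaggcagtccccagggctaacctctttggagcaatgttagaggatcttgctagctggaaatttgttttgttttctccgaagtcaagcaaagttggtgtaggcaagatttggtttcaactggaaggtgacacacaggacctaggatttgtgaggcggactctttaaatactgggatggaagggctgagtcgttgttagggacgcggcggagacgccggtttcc
The upper 3 sequences hold 2, 2 and 3 matches, and the lower 3 hold 0. These genes were picked by the ratio and do not stand for all 49. Ift74, also near the upper end of the ratios (log2 -0.10), holds 1 match.

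RFX factors, which drive ciliary genes, bind the X-box, whose core is written here as GTTGCC. Capitals mark GTTGCC or GGCAAC in the upstream bases of Ift57 and Ift140, the 2 genes with the largest RNA difference between mP/lP and pL among those with this core before the start. They lie on chr16:49699044-49699293 and chr17:25015836-25016085, both on the plus strand.
Ift57: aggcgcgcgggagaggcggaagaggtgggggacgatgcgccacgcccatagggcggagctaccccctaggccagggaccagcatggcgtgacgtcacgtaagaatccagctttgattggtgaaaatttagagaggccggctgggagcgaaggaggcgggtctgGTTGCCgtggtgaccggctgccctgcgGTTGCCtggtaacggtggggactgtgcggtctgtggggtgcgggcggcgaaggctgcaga
Ift140: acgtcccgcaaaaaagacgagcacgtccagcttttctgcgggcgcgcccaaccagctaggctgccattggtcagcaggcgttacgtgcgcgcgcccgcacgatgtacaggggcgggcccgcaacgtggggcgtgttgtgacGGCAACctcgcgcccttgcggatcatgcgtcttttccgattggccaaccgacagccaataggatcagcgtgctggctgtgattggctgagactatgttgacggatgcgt
Among the 49 promoters of 300 bases, 26 (53.1%) held CCAAT on either strand, against 37.9% of 27025 mouse promoters of the same length. GTTGCC was present in 16 (32.7%) against 12.7% of all promoters, and AACGG, the core bound by MYB factors such as A-MYB of pachytene spermatocytes, in 29 (59.2%) against 17.7%. Among 11320 promoters of expressed genes, the shares were 38.9% for CCAAT, 13.9% for GTTGCC and 23.6% for AACGG. No member promoter had CCAAT sharing bases with either other core, and in 2 promoters GTTGCC and AACGG overlapped. The members also had close neighbours more often: 18 of 58 protein-coding members (31.0%) had another protein-coding gene starting within 1000 bases on the opposite strand, against 11.6% of 20347 protein-coding genes. Examples were Cep63 with Anapc13, Ift122 with Mbd4 and Cep57 with Fam76b.

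RNA values are mean UMIs (unique molecules) per 10000 UMIs of a cell, and are compared only between populations of the same gene, because UMI values are not corrected for length. A value is a share of the RNA recovered from nuclei, so a change in the total RNA per cell is not seen. RNA of the cytoplasm was not profiled, in spermatids as in the other populations. Libraries held 30227701 to 64967271 UMIs and 177596122 to 872964488 scATAC-seq fragments. Populations held from 99 cells (unknown) to 8107 cells (L/Z/eP), with 491 in SpG Nfya-CKO, and 743145 to 48075153 UMIs. With 1 library per condition and pooled populations there is no replicate error and no test: genes at least 2-fold apart after adding 0.1 were counted by size, beside the share of all 15250 genes tested that pass the same limit. Intervals given for a value are exact Poisson 95% intervals on approximate UMI numbers, and cover counting error only. Of the 60 genes, 59 passed the limit of a mean of 0.05 over the 13 populations. Ift88os did not, with values from 0 to 0.00914.

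Populations differ in age as well as in stage. Of the cells, 99.7% of pL and 92.0% of undiff. SpG came from the juvenile wild-type libraries, against 72.0% of mP/lP, 22.9% of RS and 0.251% of ES, and 84.5% of diff. SpG came from Cre/+. The deposited cell tables name that library CreKO_8w, which was taken as Cre/+ because it is the 1 name with Cre beside a library named for NFYA. Stage and age therefore cannot be told apart. Of the Sertoli cells, 99.9% came from the juvenile libraries and 87.8% from 11 dpp alone, so Sertoli values are those of juvenile mice. Defining markers that were highest where the labels place them among the germ cell and Sertoli populations included Zbtb16 in undiff. SpG (8.74), Stra8 in pL (4.86), Piwil1 in mP/lP (11.4), Acrv1 in RS (7.19), Prm1 in ES (40.8) and Amh in Sertoli cells (0.927). Others were not highest there, such as Kit, a marker of differentiating spermatogonia, at 1.56 in diff. SpG and 2.09 in pL. Clu was at 34.1 in Sertoli cells and 31.3 in ES, and was higher still in other somatic cells (91.5). The late spermatid transcript Prm1 was also at 3.94 in diff. SpG, against 0.155 in undiff. SpG. Of 39674 scRNA-seq barcodes, 5030 (12.7%) occurred in more than 1 library, and their part in the values was not tested.

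Most of these genes had their highest RNA in meiotic or round spermatid populations. Among the 9 germ cell populations, 25 of 59 genes (42.4%) peaked in mP/lP and 13 (22.0%) in RS, whereas 11.3% and 18.2% of all genes did. Together mP/lP, D and RS held the peak of 40 of 59 genes (67.8%, against 32.7% of all genes). The peak lay before meiotic prophase for 6 genes (10.2%, against 42.7% of all genes), in undiff. SpG (Bbs12), diff. SpG (Cep170, Cep350) or pL (Cep55, Cep68, Cep250). The low point was in pL for 23 genes and in undiff. SpG for 18, whereas 24.3% and 9.56% of all genes were lowest there.

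**Figure D1:**
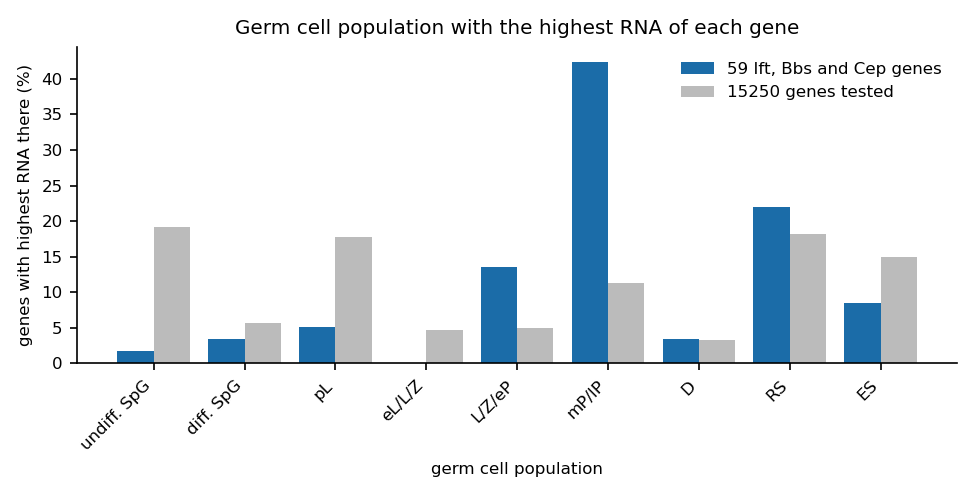
Share of genes (y axis, percent) whose highest RNA value among 9 germ cell populations lies in each population (x axis), for 59 Ift, Bbs and Cep genes (blue bars) and 15250 genes tested (grey bars). The mP/lP bar holds 42.4% of the members and 11.3% of all genes.

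**Figure D2:**
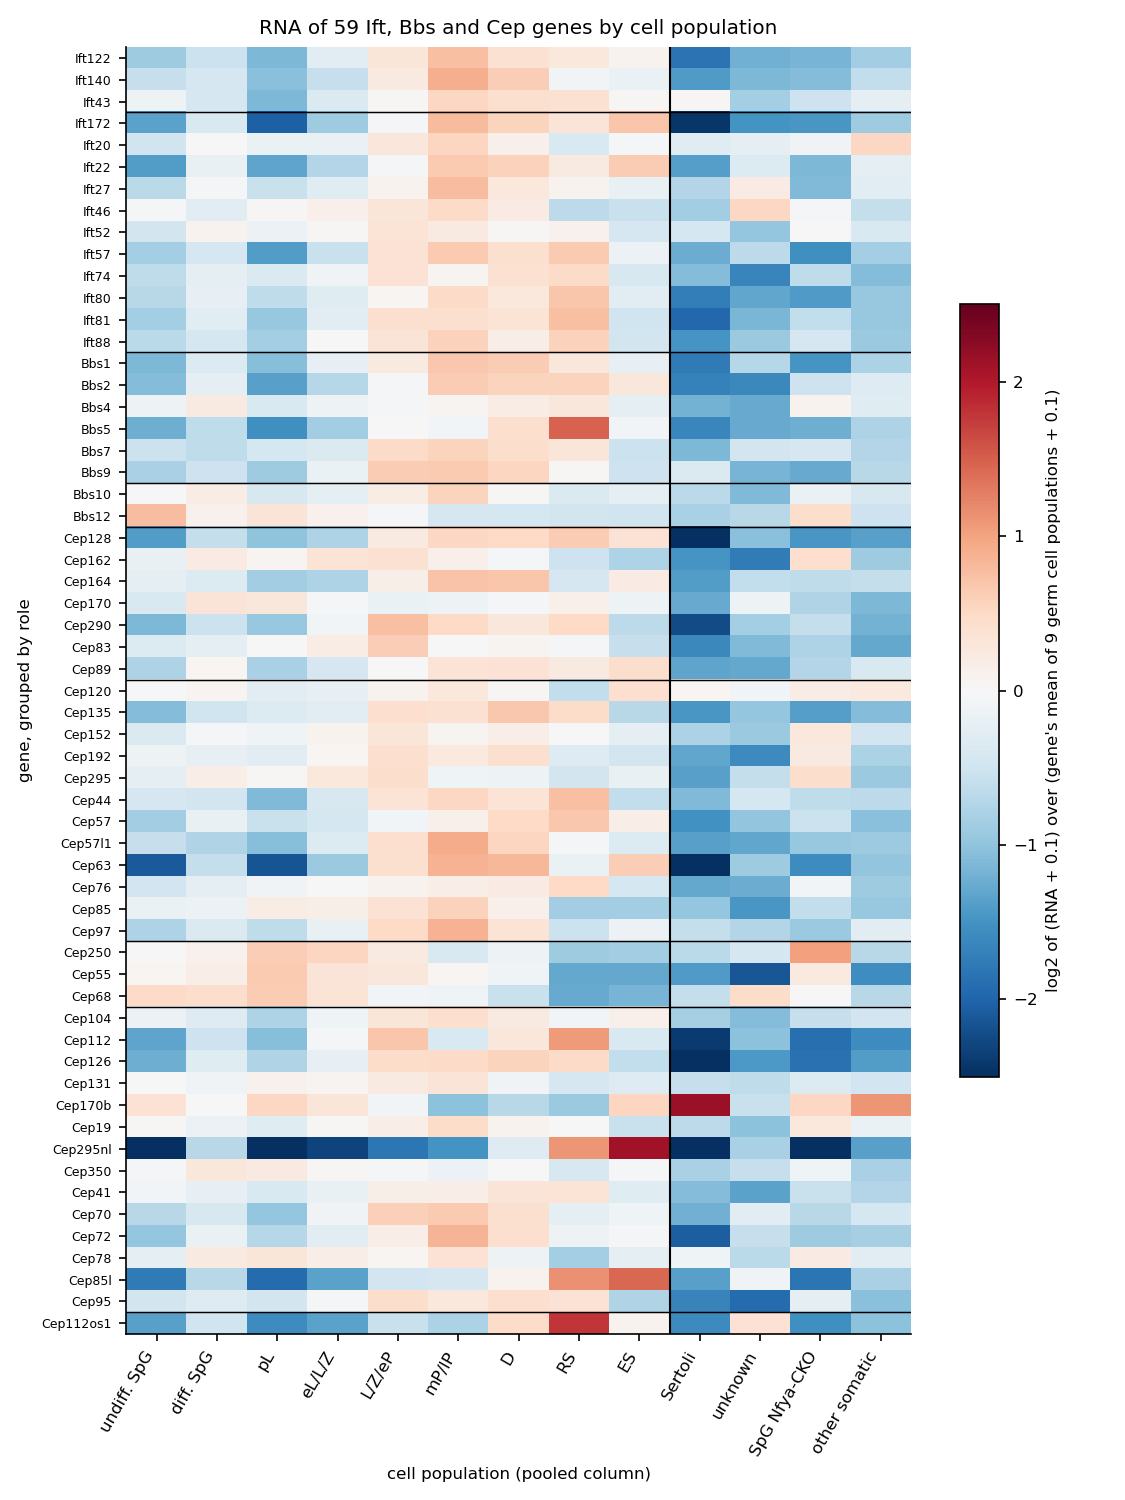
RNA of 59 genes (rows, grouped by role and separated by lines) in 13 pooled populations (columns, with 9 germ cell populations left of the vertical line), as log2 of the value plus 0.1 over the gene's own mean of the germ cell populations plus 0.1, with colours limited to 2.5 either side of 0. Red cells cluster from L/Z/eP to RS for most rows, while Cep295nl and Cep85l are highest in ES and Cep170b in Sertoli cells.

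The subfamilies shared this time course to different degrees. Each gene's RNA was divided by its own mean over the 9 germ cell populations, which puts genes of unlike level on a common scale. The median of the Ift genes stood at 0.596 in undiff. SpG, 0.470 in pL, 1.25 in L/Z/eP, 1.53 in mP/lP, 1.25 in RS and 0.845 in ES. The Bbs genes ran from 0.553 in pL to 1.60 in mP/lP and 0.776 in ES. Cep genes had the flattest course, from 0.726 in pL to 1.27 in L/Z/eP, 1.22 in mP/lP and 0.953 in RS. The median of all genes tested moved the other way, from 0.981 in pL to 0.727 in mP/lP.

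**Figure D3:**
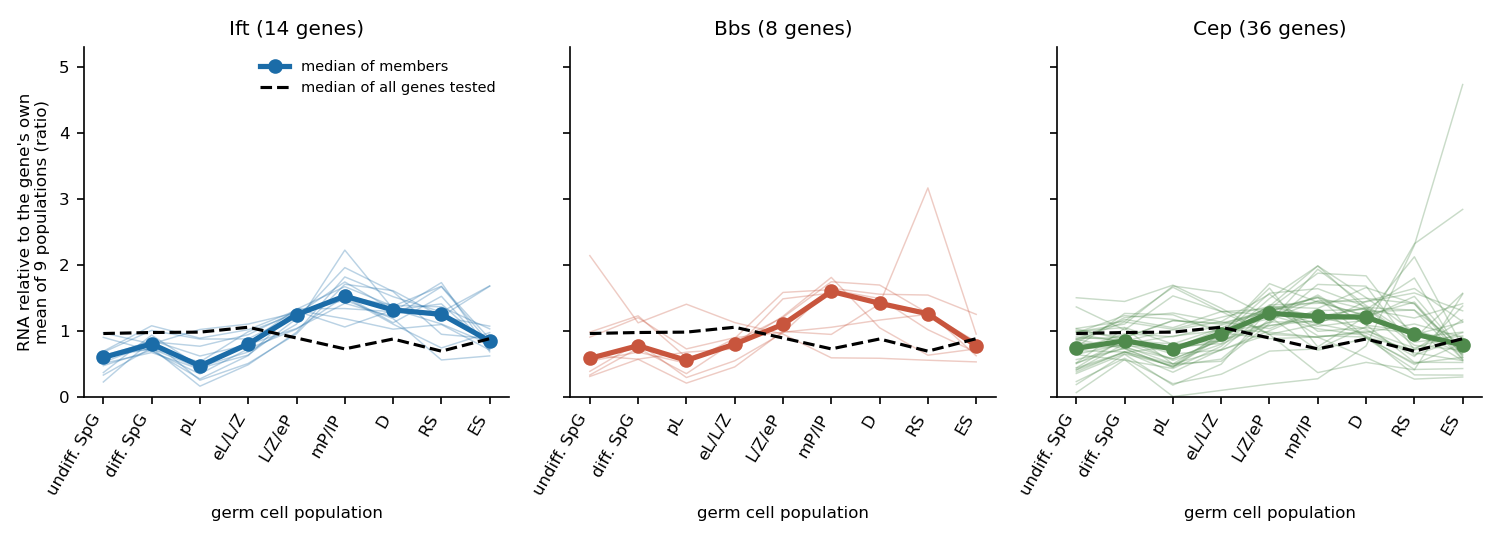
RNA relative to the gene's own mean of 9 germ cell populations (y axis, ratio) along the populations (x axis) for 14 Ift, 8 Bbs and 36 Cep genes. Thin lines are single genes, thick lines with dots are medians over the members, and the dashed line is the median of all 15250 genes tested. The Ift median goes from 0.470 in pL to 1.53 in mP/lP while the dashed line falls from 0.981 to 0.727.

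From undiff. SpG to pL, before meiotic prophase, the genes moved little. The next population, eL/L/Z, was higher than pL. Median relative RNA there was 0.801 for Ift, 0.799 for Bbs and 0.957 for Cep genes, against 0.470, 0.553 and 0.726 in pL. For all genes these medians were 1.05 and 0.981. Between pL and undiff. SpG only Ift43, a peripheral IFT-A subunit, was at least 2-fold apart, at 0.170 in pL and 0.443 in undiff. SpG (log2 ratio -1.01). Over all genes 6.19% were 2-fold lower and 2.42% higher in pL. The median log2 ratio of the members was 0.06, against -0.05 for all genes. The 3 IFT-A genes named Ift had log2 ratios of -0.23 to -1.01, and the IFT-A genes Wdr19, Ttc21b and Wdr35 of -0.61, -0.02 and 0.24, while 55.6% of all genes were below 0. The 3 cohesion and cytokinesis genes Cep250, Cep68 and Cep55 had log2 ratios of 0.15 to 0.64, under the limit.

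Between pL and mP/lP, RNA of 29 of 59 genes was at least 2-fold higher and 1 was lower, while 15.6% of all genes were higher and 19.2% were lower. With 1 added in place of 0.1, 7 members were higher and 0 lower, and 4.32% and 2.31% of all genes. The members' median log2 ratio was 0.95 (1.94-fold), against -0.16 for all genes, and 50 of 59 genes were above 0. By subfamily, 10 of 14 Ift, 5 of 8 Bbs and 14 of 36 Cep genes passed the limit upward.

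Cep63, which works with Cep152 in centriole duplication, had the largest difference. Its RNA was lowest in Sertoli cells (0.171), had a median of 0.845 over the 13 populations and was highest in mP/lP (3.07). In pL it stood at 0.291 (interval 0.265 to 0.319), in D at 3.01, in RS at 1.45 and in ES at 2.58, so that mP/lP exceeded pL 8.11-fold (log2 3.02). Cep57l1 went from 0.459 to 2.12 (3.97-fold). Cep57, which also sits around the parent centriole, stayed under 2-fold (0.679 to 1.15, log2 0.68), as did Cep152 (log2 0.18).

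IFT trains showed the same step. All 3 IFT-A genes of the list were higher in mP/lP than in pL: Ift140 went from 0.439 to 1.98 (3.86-fold), Ift122 from 0.581 to 2.40 (3.68-fold) and Ift43 from 0.170 to 0.748 (3.14-fold). Ift172, a large peripheral IFT-B subunit, was lowest in Sertoli cells (0.0894), had a median of 0.453 over the 13 populations and stood at 0.149 in pL and 1.68 in mP/lP, a difference of 7.15-fold (log2 2.84). Ift57 followed with 4.12-fold and Ift22, a Rab-like small GTPase, with 3.92-fold. Ift88, a core subunit of IFT-B, went from 0.912 to 2.64 (log2 1.44), and Ift81, Ift27 and Ift80 were 2.53-fold, 2.51-fold and 2.16-fold higher. The remaining IFT-B genes, Ift20, Ift46, Ift52 and Ift74, were above 0 with log2 ratios of 0.36 to 0.71 but under 2-fold.

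Of the Bbs genes, 5 were at least 2-fold higher in mP/lP than in pL, and Bbs12 had its highest RNA in undiff. SpG. Of the 6 BBSome genes, Bbs2 (3.98-fold), Bbs1 (3.34-fold), Bbs9 (2.92-fold), Bbs5 (2.77-fold) and Bbs7 (2.001-fold, at the limit) were higher in mP/lP than in pL, and Bbs4 had a log2 ratio of 0.45. Bbs10 and Bbs12 assist the folding of the BBSome core and are not part of it. Bbs12 was highest in undiff. SpG (0.352), at 0.231 in pL, 0.0974 in mP/lP and 0.0873 in ES, and its log2 ratio between mP/lP and pL was -0.75. Bbs10 was low throughout, from 0.0855 in pL to 0.259 in mP/lP among the germ cell populations (log2 0.95). The BBSome genes had a median relative RNA of 0.430 in pL and 1.60 in mP/lP.

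Among Cep genes, 4 of the 7 genes of the appendages and transition zone, at the ciliary end of the centriole, were at least 2-fold higher in mP/lP than in pL. Cep164, a distal appendage protein needed for docking of the basal body, went from 0.453 in pL to 1.54 in mP/lP (2.97-fold). Cep128 of the subdistal appendages (2.90-fold), Cep290 of the transition zone (2.73-fold) and Cep89 of the distal appendages (2.22-fold) were also higher. Cep83, Cep162 and Cep170 stayed under 2-fold, with log2 ratios of -0.03, 0.07 and -0.42. Cep97, which caps centrioles with CP110, was 2.86-fold higher, and Cep44, Cep70 and Cep72 were 3.06-fold, 3.05-fold and 2.96-fold higher.

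Cep170b was the 1 member at least 2-fold lower in mP/lP, at 0.626 in pL and 0.150 in mP/lP (log2 -1.54). The centrosome linker genes Cep250 and Cep68 and the abscission gene Cep55, whose protein sits in the intercellular bridges of germ cells, had log2 ratios of -1.0, -0.75 and -0.62. Cep250 missed the limit narrowly, at 0.622 in pL and 0.261 in mP/lP. All 3 were highest in pL among the germ cell populations, and their median relative RNA went from 1.68 in pL to 0.904 in mP/lP and 0.333 in RS.

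From mP/lP to RS, 8 of 59 genes were at least 2-fold lower and 5 higher (all genes: 9.36% lower and 17.6% higher). The lower ones were Cep85 (2.79 to 0.962), Cep97 (1.10 to 0.352), Cep55 (0.740 to 0.239), Cep78 (0.913 to 0.337), Cep68 (0.346 to 0.103), Ift46 (0.735 to 0.280), Cep164 (1.54 to 0.649) and Cep63 (3.07 to 1.45). These include duplication factors (Cep63, Cep85) and the capping protein Cep97. Ift46 was the 1 Ift gene past the limit, and the median log2 ratio of the 14 Ift genes was -0.28. With 1 added in place of 0.1, 0 members were lower and 2 higher, against 1.33% and 4.12% of all genes. With 0.01 added, 14 were lower and 5 higher, against 18.1% and 22.9% of all genes.

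The genes higher in RS had courses of their own. Bbs5, a BBSome subunit that binds phosphoinositides, stood at 0.1 in pL (interval 0.0851 to 0.117), 0.454 in mP/lP, 1.52 in RS (1.47 to 1.57) and 0.457 in ES. It was 2.92-fold higher in RS than in mP/lP and 2.91-fold lower in ES than in RS. No other Bbs gene passed the limit in either step. Cep112 was at 1.36 in pL, 4.86 in L/Z/eP, 2.23 in mP/lP, 6.26 in RS and 2.23 in ES, with a peak in each of L/Z/eP and RS. Its antisense transcript Cep112os1 was at 0.00146 in pL, 0.0765 in mP/lP, 0.950 in RS and 0.221 in ES. Reads of the antisense pair cannot be told apart, because the strand used in counting is not stated in the sources used here. Of the 60 members, 25 overlapped another gene in the annotation, and the part of this in their RNA values was not tested. The scATAC-seq value of Cep112os1 is described below.

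Between RS and ES, 10 genes were at least 2-fold lower and 3 were higher, against 10% and 10.1% of all genes. Besides Bbs5, Cep112 and Cep112os1 the lower genes were Cep44 (2.56-fold), Ift81 (2.38-fold), Cep290 (2.22-fold), Cep135 (2.21-fold), Cep95 (2.19-fold), Cep126 (2.13-fold) and Ift88 (2.04-fold). The higher genes were Cep170b (0.168 to 0.637), Cep120 (0.514 to 1.16) and Cep295nl (1.79 to 3.69). The ES column also carried somatic transcripts, with Clu at 31.3 and Insl3 at 3.81 against 2.90 and 0.527 in RS, and Cep170b was far above this level in Sertoli cells (2.19). The part of such transcripts in the ES values was not tested. With 1 added in place of 0.1, 1 member was lower in ES than in RS and 0 were higher, against 1.74% and 1.13% of all genes.

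Paralogs parted ways. Cep85 and Cep85l had opposite courses in late germ cells: Cep85 was highest in mP/lP (2.79) and lowest in ES (0.956), whereas Cep85l was lowest in pL (0.226), at 0.823 in mP/lP and highest in ES (3.22). Cep57l1 peaked in mP/lP (2.12) and Cep57, its paralog, in RS (1.72). Cep170 varied little among germ cells (0.852 to 1.43), and Cep170b was highest in Sertoli cells. Cep295, which turns new centrioles into centrosomes, stayed between 1.14 and 2.19 in germ cells, while Cep295nl, a short gene related to it, went from 0.00320 in pL (about 5.13 UMIs) through 0.214 in mP/lP and 1.79 in RS to 3.69 in ES. Cep295nl lies within Timp2 on the same strand of chromosome 11. Timp2 itself was at 0.422 in pL, 2.16 in RS and 6.99 in ES, but at 4.62 in Sertoli cells, where Cep295nl was at 0.0405.

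In Sertoli cells 19 of 59 genes were at least 2-fold lower than in undiff. SpG and 1 was higher, against 16.9% and 10.1% of all genes. With 1 added in place of 0.1, 0 were lower and 1 was higher, against 1.38% and 3.38% of all genes. With 0.01 added, 29 were lower, against 34.5% of all genes. The median log2 ratio of the members was -0.68, against -0.29 for all genes. Sertoli values lay below all 9 germ cell populations for 45 of 59 genes (76.3%, against 30.6% of all genes). The largest differences were in Cep126, a satellite protein (1.0 to 0.265, 3.03-fold lower), Bbs12 (0.352 to 0.0515, 2.99-fold), Cep55 (2.75-fold), Cep162 (2.45-fold), Cep83 (2.42-fold) and Cep128 (2.41-fold). Of the 7 appendage and transition zone genes, 5 passed the limit downward. The exception in the list was Cep170b, a microtubule-binding protein, with 2.19 in Sertoli cells (interval 2.14 to 2.23) and 0.558 in undiff. SpG, a 3.48-fold difference. The undiff. SpG column is shared by this comparison, by that with pL and by those with SpG Nfya-CKO, so they are not independent.

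Genes of the same machinery under other names were counted from fixed lists. Of 16 IFT and BBSome genes with other symbols, a list that also holds the chaperonin-like Mkks, the BBSome regulator Lztfl1 and the GTPases Arl6 and Rabl2, 10 were at least 2-fold higher in mP/lP than in pL and 0 were lower, with a median log2 ratio of 1.34 (all genes: 15.6% higher and 19.2% lower). Among them Ttc30a1 (0.0626 to 0.795), Wdr19 (0.141 to 1.05), Wdr35 (0.550 to 2.42) and Ttc26 (0.160 to 0.896) had the largest differences, while Hspb11 and Mkks had log2 ratios of -0.84 and -0.70. Of 8 cilium motor genes 5 were higher, including the retrograde IFT dynein subunits Dync2h1 (1.53 to 5.09) and Dync2li1 (log2 2.45). The kinesin Kif17 was lower in mP/lP (log2 -0.56) and then 2.72 higher on the log2 scale in RS, at 0.294 and 2.49. Of 9 genes of centriole duplication and the pericentriolar matrix, 0 passed the limit between pL and mP/lP (median log2 0.10). Between undiff. SpG and pL, Sass6 and Ccp110 were at least 2-fold higher in pL, with log2 ratios of 1.28 and 1.14, as were 2.42% of all genes.

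Transcription factors of ciliary genes differed in timing. Rfx4 went from 0.0626 in pL to 2.09 in mP/lP and 3.02 in RS, and Rfx2 from 0.454 in pL to 3.13 in mP/lP. Rfx1, Rfx3 and Foxj1 were instead at least 2-fold higher in RS than in mP/lP, with log2 ratios of 2.27, 1.53 and 2.45. Beside these courses, members with GTTGCC in the promoter had a median mP/lP to pL difference of 2.74-fold (11 of 16 at least 2-fold higher), and members with no match one of 1.64-fold (13 of 33). Over all genes with a promoter the medians were 1.02-fold and 0.859-fold, and 21.8% and 13.4% were at least 2-fold higher. Ordered by AACGG, members with a match had the lower median (1.61-fold against 2.87-fold), whereas over all genes those with a match had the higher (0.938-fold against 0.860-fold). These splits are descriptions, and a match does not show that a factor binds.

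RNA of the members differed little between SpG Nfya-CKO and undiff. SpG. Of 59 genes 1 was at least 2-fold higher and 0 were lower, against 4.09% and 3.08% of all genes, and the median log2 ratio was -0.05. The higher gene was Cep250 (C-Nap1), which holds the 2 centrioles of a centrosome together, at 0.858 (interval 0.801 to 0.918) in SpG Nfya-CKO and 0.364 (0.333 to 0.398) in undiff. SpG. Next in size were Cep295 (log2 0.67) and Cep152 (0.63) upward, and Ift80 (-0.72), Ift57 (-0.67) and Cep126 (-0.66) downward. The IFT-A genes did not share a direction: the log2 ratios of Ift122, Ift140 and Ift43 were -0.27, -0.51 and -0.40, and those of the IFT-A genes Wdr19, Wdr35 and Ttc21b were 0.17, 0.18 and -0.45. Ift27, another Rab-like GTPase of IFT-B, was at 0.0123 in SpG Nfya-CKO and 0.0516 in undiff. SpG, but rests on about 12 UMIs in the former and stays under 2-fold once 0.1 is added. With 1 added in place of 0.1, 0 members were higher, Cep250 included, and 0 lower, against 0.282% and 0.295% of all genes. With 0.01 added, 1 was higher and 3 lower, against 10.2% and 9.6% of all genes.

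Several measures moved with this comparison. Nfya RNA was 1.11 in SpG Nfya-CKO and 0.456 in undiff. SpG, so its level was higher, not lower, in the cells that carry the Nfya-CKO label. UMIs from outside the deleted exons are counted too, and the value therefore does not check the deletion. The 3 Leydig markers summed to 48.2 in SpG Nfya-CKO and 0.158 in undiff. SpG, and the 3 Sertoli markers to 23.6 and 3.07. Most of the latter was Clu (22.8 and 2.5), while Sox9 was at 0.820 and 0.531 and Amh at 0.0116 and 0.0431. The macrophage, endothelial and peritubular pairs summed to 0.209, 0.256 and 0.156 in SpG Nfya-CKO, against 0.0479, 0.165 and 0.133 in undiff. SpG. Ages differed as well, since SpG Nfya-CKO came from an 8-week-old mouse library. The part of these in the values was not tested. Against diff. SpG, which came mostly from the Cre/+ library of the same age, 11 of 59 genes were at least 2-fold lower and 0 higher, while 10.5% of all genes were lower and 6.86% higher. Diff. SpG is also a later stage, and its late spermatid markers summed to 6.62, against 0.105 in SpG Nfya-CKO, whose part in these counts was not tested.

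**Figure D4:**
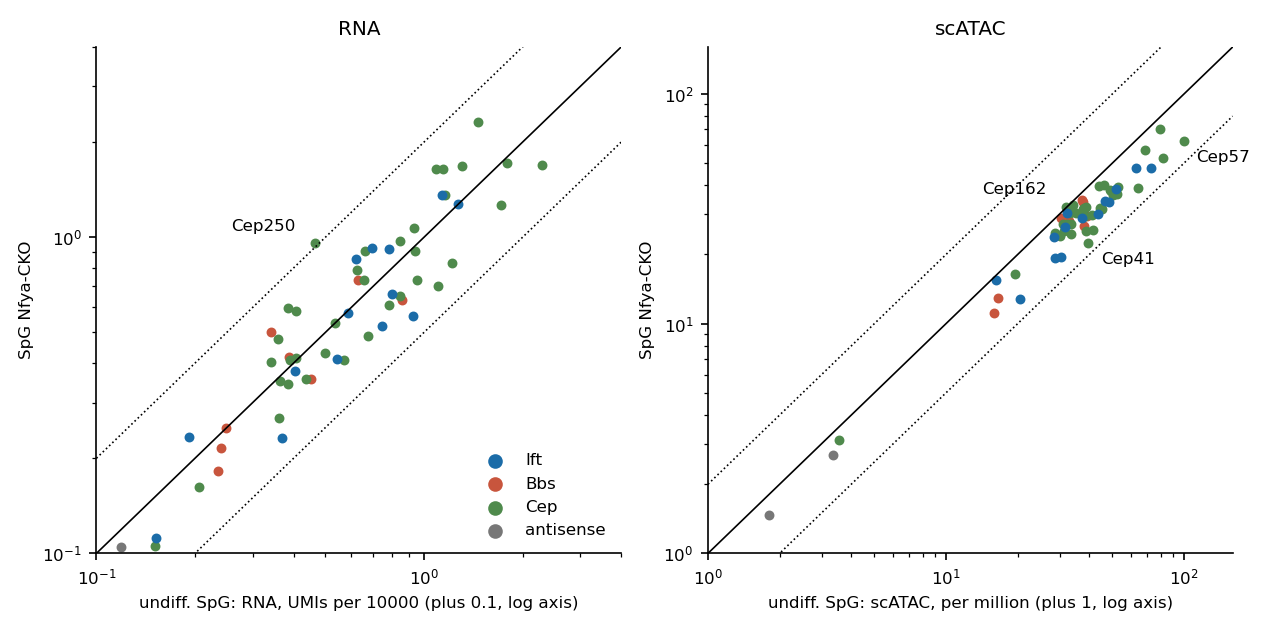
Values in SpG Nfya-CKO (y axes) against undiff. SpG (x axes) on log axes, for RNA of 59 genes (left, UMIs per 10000 plus 0.1) and scATAC-seq of 60 genes (right, per 1000000 plus 1). Dots are genes coloured by subfamily, the solid line marks equality and dotted lines mark 2-fold. RNA dots lie on both sides of the solid line with Cep250 at the upper limit, and 59 of 60 scATAC-seq dots lie below it. The scATAC-seq values shown include mitochondrial genes in the scaling, and 54 of 60 genes are below equality without them.

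Accessibility is given as the scATAC-seq value of a gene per 1000000 over all genes of a population. The study's methods define promoter accessibility by mean coverage in a short window around the transcription start, and do not say whether these values per gene were made that way. Members had a median of 36.6 in undiff. SpG, 41.9 in pL, 29.6 in mP/lP and 42.4 in RS, above the median of all nuclear genes in each (12.1, 9.81, 4.88 and 9.45). By signal in undiff. SpG, 40 members lay in the top quartile of all genes, 17 in the next, 2 in the one below and 1 in the lowest. Cep112os1 (0.801) and Cep295nl (2.55) were among those below the median of all genes. Cep63 was at 43.5 in undiff. SpG and 38.1 in mP/lP, and at 73.4 and 96.1 when values were scaled without mitochondrial genes, so the direction of this difference is set by the scaling.

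Between mP/lP and undiff. SpG, 2 of 60 genes had a value at least 2-fold higher and 1 lower, against 2.47% and 22.3% of 30587 genes. The higher ones were Cep112os1 (0.801 to 3.64) and Cep295nl (2.55 to 7.95), which reached 15.9 and 30.1 in RS. The lower one was Cep170b (33.3 to 11.8). The median log2 ratio was -0.23 for the members and -0.33 for all genes. Mitochondrial genes took 40.6% of the signal in undiff. SpG and 60.3% in mP/lP, and when values were scaled without them the medians became 0.34 and 0.14. The direction of the median is therefore set by the scaling, whereas the members stood above all genes by 0.10 and 0.20 under the respective scalings.

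How far RNA and accessibility of a gene followed each other over the 9 germ cell populations depended on the scaling. Spearman's rho had a median of -0.20 over 59 members and was above 0 for 19 (32.2%), whereas over 15246 genes the median was 0.30 and 68.5% were above 0. Scaled without mitochondrial genes, an alternative added after the data were seen, the median was 0.35 with 52 members (88.1%) above 0, and 0.33 with 70.9% for all genes. Bbs5 had its highest signal in RS, the population of its RNA peak, at 39.3 with and 65.8 without mitochondrial genes in the scaling. The values of rho are descriptions over 9 points that share libraries, depth and the mitochondrial share, and the ES column rests on 124 cells with both readouts.

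In SpG Nfya-CKO, scATAC-seq values of 59 of 60 genes were below those in undiff. SpG, against 53.1% of all genes, and none was 2-fold apart (all genes: 0.444% lower and 1.6% higher). The median log2 ratio was -0.33 (0.793-fold), against -0.03 for all 30374 genes. Scaled without mitochondrial genes, 54 of 60 members were below undiff. SpG. The other ratios in this paragraph include mitochondrial genes in the scaling. The genes named here were chosen after their values were seen. The lowest ratios were those of Cep41, which acts in tubulin glutamylation (38.6 to 21.5, log2 -0.82), Cep68 (62.8 to 37.9, -0.71), Cep89 (40.3 to 24.5, -0.69), Cep57 (98.6 to 61.3, -0.68) and Ift22 (19.4 to 11.8, -0.67). The Ift genes had a median of -0.43, the Cep genes of -0.31 and the Bbs genes of -0.29. Cep162 was the 1 member above 0, at 31.3 and 30.8. In the fixed lists, the median was -0.17 for IFT and BBSome genes under other names and -0.25 for cilium motors. It was -0.10 for genes of centriole duplication and the pericentriolar matrix and -0.43 for ciliary transcription factors. Each list held values on both sides of 0. Examples were Dync2li1 (0.27) and Wdr34 (-0.42), and Nin (0.40) and Pcnt (-0.58). In each list 0 genes were 2-fold apart.

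Genes with a like level of signal had lower values too. All genes were divided into quartiles by their value in undiff. SpG, and 40 of 60 members were in the top quartile, where the median log2 ratio of 7594 genes was -0.28 and 90.0% of genes were below equality. In the lowest quartile the median log2 ratio was 0.18. The value in undiff. SpG sets the quartile and is also the denominator of the ratio, so quartile and ratio are not independent. Mean enrichment at transcription start sites, a measure of signal over background, was 7.99 per cell in SpG Nfya-CKO and 12.7 in undiff. SpG, and mitochondrial genes took 46.0% and 40.6% of the signal. Their part in the ratios was not tested. Scaled without mitochondrial genes, the medians were -0.24 for the members, 0.09 for all genes and -0.15 for the top quartile, and 36 of 60 members were below the median of the top quartile under either scaling. Members outside that quartile are included in these values. Against diff. SpG, an alternative added after the data were seen, 14 of 60 members were at least 2-fold lower and 0 higher, while 8.01% of all genes were lower and 9.39% higher, and the median log2 ratio was -0.69 for the members and -0.57 for the top quartile.

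The values also differed by promoter CCAAT. The 26 members with a match had a median ratio of 0.699, and the 23 members with no match one of 0.844. Ratios below 1 were common to both, at 100% and 95.7% of these members, and at 93.7% and 87.8% of the genes in the top quartile with and without a match. Scaled without mitochondrial genes, these shares were 96.2% and 78.3% of the members and 83.5% and 70.4% of the top quartile. The median ratios of the members with and without a match were then 0.764 and 0.925. In the order by ratio, the 14 lowest of the 49 members with a promoter all had a match. That number was set by the values themselves, as the place of the first gene without a match. Members without a promoter sequence, such as Cep120 (log2 -0.62), are not in this order. The sequences printed above for Cep41, Cep68 and Cep89 are the extreme of this order among genes with 1 start. A match does not show that NF-Y binds, and the cause of the difference was not tested. The groups overlapped: Ift74 (log2 -0.10), Cep57l1 (-0.15), Cep97 (-0.20) and Cep135 (-0.23) had a match and lay above the median without one, and Cep63 (-0.49), Ift20 (-0.42), Cep70 (-0.41) and Ift46 (-0.37) were the lowest without a match. In the top quartile of all genes the medians were 0.781 with a match and 0.846 without, and over all genes with a promoter 0.927 and 0.977. For GTTGCC the medians of the members were 0.795 with a match and 0.778 without, and for AACGG 0.783 and 0.792. The RNA log2 ratios of Cep41, Cep68, Cep89, Cep57 and Ift22, the genes with the lowest scATAC-seq ratios, were -0.48, -0.47, 0.03, 0.34 and 0.28.

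**Figure D5:**
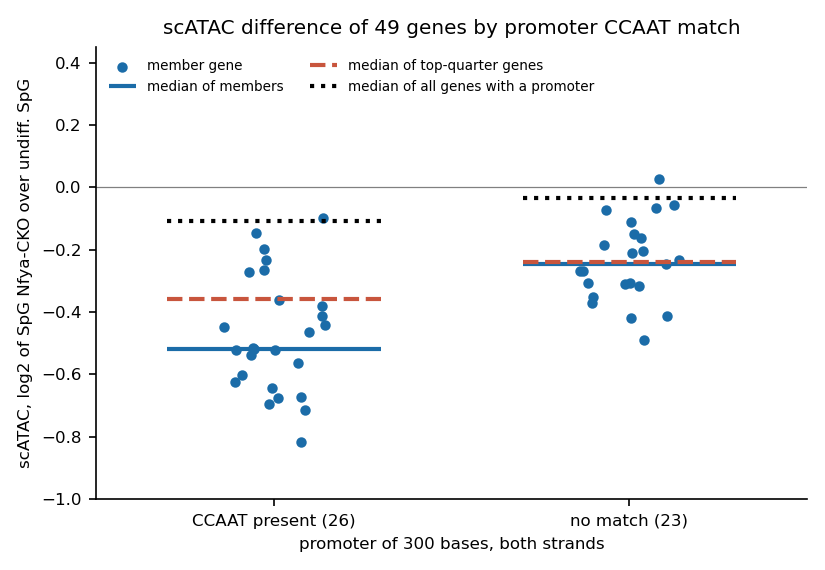
scATAC-seq log2 ratio of SpG Nfya-CKO over undiff. SpG (y axis) for 49 members by presence of CCAAT in the promoter of 300 bases (x axis). Dots are genes with random sideways spread, blue lines are medians of the members, red dashed lines those of genes in the top quartile of signal and black dotted lines those of all genes with a promoter. The blue line lies at -0.52 with a match and at -0.25 without.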

How the data were processed

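Testes of 5 conditions were profiled with BD Rhapsody, giving 1 scRNA-seq and 1 scATAC-seq library each (10 libraries). Per the study's methods and the submitters' processing notes, RNA reads were aligned to mm10 with STAR 2.7.10b and normalised in Seurat 5.2.1, and scATAC-seq reads were aligned with BWA 0.7.12 and handled with ArchR 1.0.3 and bedtools 2.27.1. Cells with under 500 genes, at least 5% mitochondrial UMIs, under 1000 fragments or a start-site score under 4, and doublets, were removed by the authors. The authors deposited, for each gene and population, the natural log of 1 plus a value that sums to 10000 over genes, pooled over libraries. The deposited cell tables hold counts of UMIs and fragments per cell and a ratio, the enrichment at transcription start sites, as the authors computed it. A further 24 columns of values were not used.

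Values were converted back by the exponential minus 1, and scATAC-seq values were rescaled to 1000000. Log2 ratios used a pseudocount of 0.1 (RNA) or 1 (scATAC-seq), after a filter on a mean RNA of at least 0.05. UMI numbers behind a value were approximated as the value times the UMIs of the population divided by 10000. Scripts ran in Python 3.11.15 with numpy 2.4.6, pandas 2.3.3, scipy 1.17.1 and matplotlib 3.10.9, and were tested on simulated data. Pooled columns allow no test between conditions.

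The genes named are members at least 2-fold apart (all where at most 8, otherwise the 6 with the largest difference in each direction), all Bbs genes, the core IFT-A and IFT-B genes, members at 0 or under the filter, 4 pairs of paralogs and the pathway lists. Others were named after their values were seen. The members and lists were chosen with earlier results of these data known. Alternatives were other pseudocounts and filters, symbols ending in the number only, diff. SpG as the control, and scaling without mitochondrial genes.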

Additional observations from a re-analysis of the deposited data

How the results depend on the processing

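Most counts and medians stayed within 1.5 times or 1 spread of the reported value under the alternatives tried: 105 of the summary values did, 24 moved and 2 reversed. With a pseudocount of 0.01 in place of 0.1, the members at least 2-fold lower were 3 (pL against undiff. SpG), 3 (mP/lP against pL), 14 (RS against mP/lP), 29 (Sertoli cells) and 3 (SpG Nfya-CKO), against 17.6%, 29.3%, 18.1%, 34.5% and 9.6% of all genes. With a pseudocount of 1, which damps low genes, 7 were higher and 0 lower in mP/lP than in pL, 2 higher and 0 lower in RS than in mP/lP, 0 higher and 1 lower in ES than in RS, 0 lower in pL than in undiff. SpG, 0 lower in Sertoli cells and 0 higher in SpG Nfya-CKO. The shares of all genes there were 4.32% and 2.31%, 4.12% and 1.33%, 1.13% and 1.74%, 0.525%, 1.38% and 0.282%. With symbols ending in the number only, 0 were lower in mP/lP than in pL, 2 higher in RS, 1 higher in ES and 0 higher in Sertoli cells, and for scATAC-seq in mP/lP 0 were higher and 0 lower, because fewer genes were counted. Against diff. SpG, SpG Nfya-CKO had 0 RNA values higher and 11 lower, and 14 scATAC-seq values lower, the last chosen after seeing the data, while 6.86%, 10.5% and 8.01% of all genes passed these limits. Genes in the top quartile of undiff. SpG signal had a median scATAC-seq log2 ratio of -0.57 there and the members one of -0.69. The cause was not tested. Scaled without mitochondrial genes, scATAC-seq in mP/lP had 0 genes lower and its median log2 ratio turned from -0.23 to 0.34. The median rho of RNA and accessibility turned from -0.20 to 0.35 with the same scaling, added after seeing the data. No paired analysis was possible because each condition has 1 library and the columns pool libraries, so no library could be left out either.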
